A study of Mus musculus with 9 samples.

Results

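The genes described here are 10 genes of fatty acid uptake and fat storage, measured in lung macrophages with and without the nuclear receptor gene Pparg: Cd36, Fabp1, Fabp4, Fabp5, Lpl, Cidec, Plin2, Dgat1, Dgat2 and Angptl4. They were taken by gene symbol or older alias, and 13 of the 46237 probes of the deposited table carried 1 of them. After a filter that asked for a detection p-value under 0.05 on at least 3 arrays, 10 of these 13 probes, from 8 of the 10 genes, remained among 21946 probes and 12246 genes. The study compared 3 groups of 3 single-colour Illumina arrays, hybridised with amplified RNA of macrophages that had been sorted from lungs of 8 week old female C57/BL6 mice by SiglecF and CD11b. The deficient group, titled "Hom int pop", held Pparg-deficient alveolar macrophages from Pparg-/-.LysMCre mice, in which the Cre recombinase is driven by the promoter of the myeloid lysozyme gene. The homozygous wild type group, titled "Hom Mph", came from mice with the same genotype label but is called wild type by its cell type label. The heterozygous group, titled "Het Mph", came from Pparg-/+.LysMCre mice and is also called wild type. Every group thus carried the Cre transgene, and no group without it was included. Nothing in the labels says that the numbered arrays of a group came from separate mice, so p-values measure the spread between these arrays, which may be technical. Both the deficient and the homozygous wild type titles run from Hom1 to Hom3, and whether equal numbers mark the same mice is not given.

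Alveolar macrophages live in the air spaces of the lung, where they take up and break down surfactant, a film made mostly of lipid. Fatty acids enter cells through carriers such as CD36 or after lipoprotein lipase has freed them from triglyceride, are held in the cytosol by fatty acid binding proteins, and are stored as triglyceride in lipid droplets. PPARg is a lipid-activated receptor that binds DNA together with RXR, and many genes of this route are known as its targets in adipocytes.

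The arrays' median signal ran from 145 to 290.3, and 37.8% to 42.5% of probes per array were above background. The array numbers in the titles differ between the deficient group and both control groups, so whatever goes with that number, and the unexplained name "int pop", cannot be told apart from the deficiency. The brightest Pparg probe read 7.58, 7.23 and 7.76 (normalized log2 signal) on deficient arrays 1 to 3, 9.71, 9.15 and 8.13 on homozygous wild type arrays and 9.46, 9.36 and 9.55 on heterozygous arrays. All deficient arrays were below all controls, but the difference from both controls, -1.70 (SE 0.33), missed the threshold (limma adjusted p = 0.0592; called in 5 of 18 alternatives), as did those from heterozygous (-1.93, 0.0538) and homozygous wild type cells (-1.48, 0.288). The 2 other passing Pparg probes did not separate deficient from homozygous wild type arrays: they differed from both controls by -0.82 and -1.58 (limma adjusted p = 0.373 and 0.28 over all probes). On the dimmer of them, homozygous wild type array 3 (4.35, not above background) lay below all deficient arrays (4.50, 5.19 and 5.43). These probes are the check of the deficiency label that the arrays offer, and they separate deficient from heterozygous arrays in all 3 cases but from homozygous wild type arrays in 1. Whether these probes fall within the part of the gene that Cre removes was not analysed here. The 10 alveolar macrophage markers were all above background on at least 1 array. Of them, 3 fell in deficient cells against both controls, beside 0.196% of all genes: Siglecf, the sort marker itself, Marco and Krt19. The other 7 were not called, from Krt79 at -1.42 to Itgax at 0.54 (limma adjusted p = 0.069 and 0.3). Among these, Cd68 was at 0.09 and Chil3 at -0.17. Against heterozygous cells Siglecf, Krt79 and Krt19 fell, beside 0.269% of all genes, and Marco did not pass (-2.10, limma adjusted p = 0.0704). Against homozygous wild type cells Krt19 fell and the other markers did not pass. Krt79 was at 4.36 in deficient, 4.66 in homozygous wild type and 6.91 in heterozygous cells (normalized log2 means). The signals of all 10 markers were also summed as deposited, without normalization. The sums were 9736 to 10510 in deficient, 12000 to 13350 in homozygous wild type and 11250 to 12800 in heterozygous cells. Array medians ran from 146 to 184, 145 to 242 and 198 to 290 in the same order. Such sums follow array brightness and the brightest markers, and no change of cells is read from them. Of 6 tested markers of monocytes and interstitial macrophages, C1qb rose against both controls. Against heterozygous cells C1qb and Csf1r rose (Csf1r at 2.56, limma adjusted p = 0.0247). The 6 differences from both controls ran from 0.11 (C1qa) to 3.50 (C1qb), with a median of 1.52 beside -0.07 over all genes. Normalized log2 means of C1qb were 8.98, 6.79 and 4.18 in deficient, homozygous wild type and heterozygous cells, and of Csf1r 8.01, 6.73 and 5.45. Between the controls 0 of the 6 passed. The list's summed signal over the 8 markers on the array was 2962 to 4970, 2209 to 3111 and 2027 to 2521 in the same order of groups, with Ccr2 above background on no array. The part of this shift in the values below was not tested. In such sorted bulk samples, fewer cells of a type and less RNA per cell cannot be told apart.

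Where the results turn on Cidec, its sequence context is given from RefSeq (build GRCm38.p6), whose promoter table held 5 windows for 4 of the 10 genes (Cd36, Cidec, Fabp1 and Plin2). Each window runs from 250 bases before to 50 bases after a transcript start. The motif searched on both strands was the PPAR and RXR response element known as DR1, which is AGGTCA, any 1 base (N) and AGGTCA again, with up to 2 mismatches in its 12 fixed letters. The 2 windows of Cidec, both on the minus strand of chromosome 6, are shown because Cidec was the gene that fell. The first lies at chr6:113435711-113436010 and the second at chr6:113434715-113435014:
Cidec window 1: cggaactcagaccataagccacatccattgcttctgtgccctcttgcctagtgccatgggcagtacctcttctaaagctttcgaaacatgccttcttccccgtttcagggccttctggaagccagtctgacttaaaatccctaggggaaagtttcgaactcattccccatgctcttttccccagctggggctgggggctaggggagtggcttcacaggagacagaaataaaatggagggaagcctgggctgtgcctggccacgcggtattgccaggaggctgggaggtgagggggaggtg
Cidec window 2: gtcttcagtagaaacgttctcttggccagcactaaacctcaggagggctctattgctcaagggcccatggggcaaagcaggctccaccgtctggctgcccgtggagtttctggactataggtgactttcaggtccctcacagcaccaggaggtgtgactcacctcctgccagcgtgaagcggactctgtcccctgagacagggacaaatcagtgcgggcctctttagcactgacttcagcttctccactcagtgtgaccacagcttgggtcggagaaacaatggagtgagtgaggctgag
Neither held a match, so they are in lower case throughout; the closest stretches had 3 and 4 mismatches, and this says nothing about the receptor outside these letters. The windows of Fabp1, Cd36 and Plin2 each held 1 match, shown in capitals with 10 bases on either side, all on the strand opposite to the gene:
Fabp1, chr6:71199629-71199928, plus strand: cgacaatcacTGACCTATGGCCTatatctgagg
Cd36, chr5:17835847-17836146, minus strand: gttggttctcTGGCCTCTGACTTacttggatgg
Plin2, chr4:86670010-86670309, minus strand: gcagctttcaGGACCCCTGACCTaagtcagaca
The match of Fabp1 had 1 mismatch and began 67 bases before the start, and those of Cd36 and Plin2 had 2 mismatches and began 63 and 225 bases before it. Among all 32851 windows of the table, 3.86% held a match with up to 2 mismatches, 0.554% one with up to 1 and 0.0396% an exact one. AGGTCA alone, which is part of the matches of Fabp1 and Plin2 and is found separately in the Cd36 and Fabp1 windows, occurred in 16.3% of all windows. A match is a string of letters and not a shown binding site.

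Against the mean of both control groups, 1 of the 8 tested genes fell in deficient cells, Cidec, and 0 rose, while 7 of the 8 had values below those of the controls on average. Cidec met the filter through control arrays only, and that favours a fall in deficient cells. The share of all genes that fell was 0.196%, and 56.6% of all genes had a negative difference. The median of the 8 genes was -0.35 (log2), beside -0.07 over all 12246 genes. Deficient arrays lay below all 6 control arrays for Cidec and Lpl, which 3.30% of all genes did. Tested probe by probe, 1 of the 10 passing probes fell, again that of Cidec, against 0.164% of all 21946 probes. The comparisons share arrays, so they are not independent of each other.

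**Figure D1:**
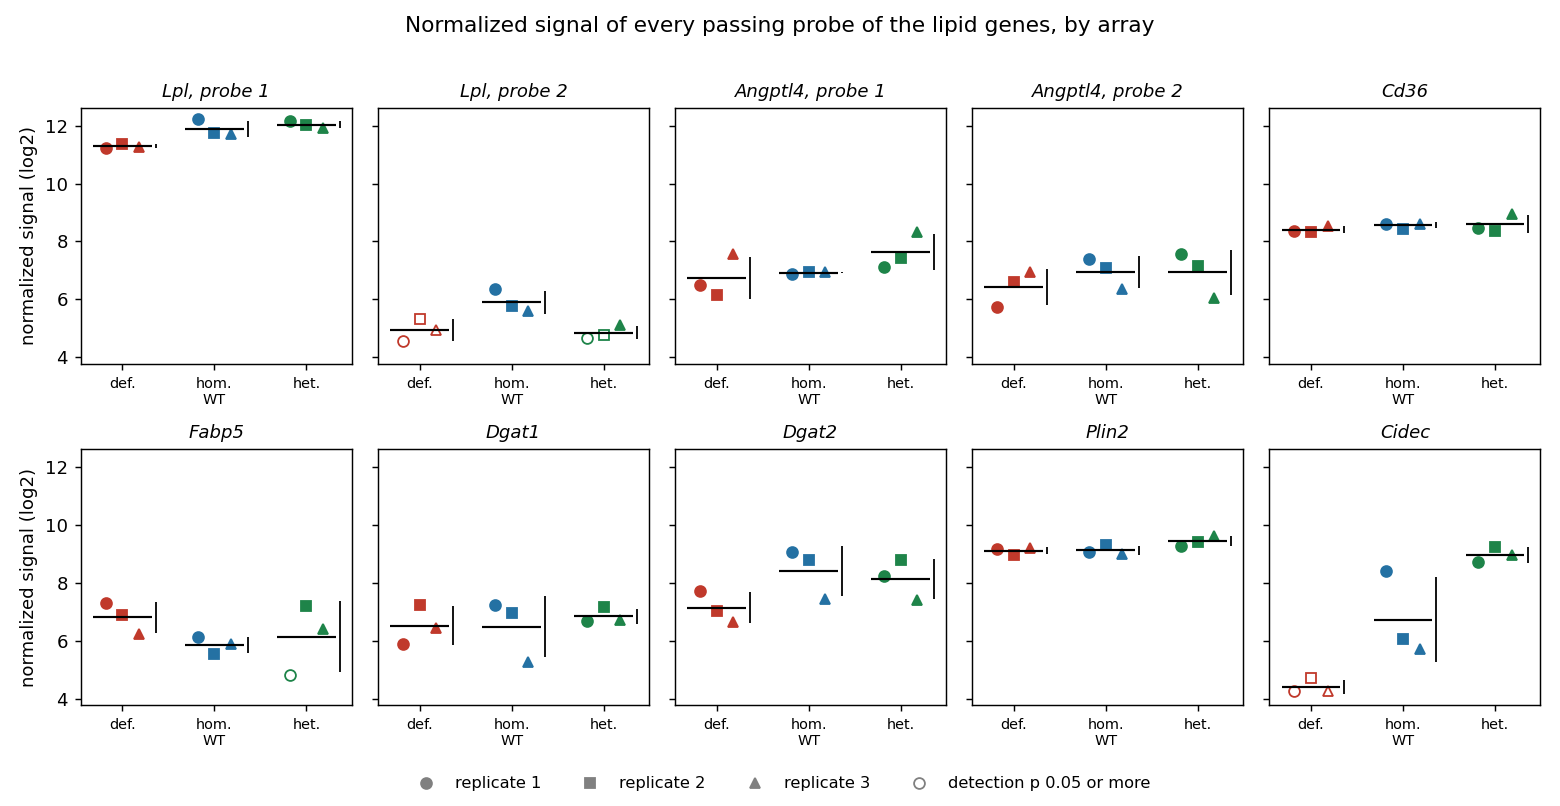
Normalized log2 signal (vertical axis) of the 10 passing probes on each of the 9 arrays, by group (def., deficient; hom. WT, homozygous wild type; het., heterozygous); horizontal lines are group means, vertical bars are 1 SD to each side (n = 3), and open symbols mark a detection p-value of 0.05 or more. In the panels of Cidec and of the second Lpl probe all 3 deficient arrays are open; the Cidec homozygous wild type arrays run from 5.71 to 8.41 and the heterozygous arrays from 8.71 to 9.23.

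Cidec encodes a lipid droplet protein that gathers at contacts between droplets and promotes their fusion into larger ones. Its probe read 126, 160 and 152 (signal as deposited) on the 3 deficient arrays, none of them above background. It read 524, 307 and 248 on the homozygous wild type arrays and 614, 763 and 739 on the heterozygous arrays, all above background. The probe thus met the filter through control arrays only, and the filter favours a high value there. The fit without the filter is among the alternatives below. The 3 groups did not overlap, with heterozygous arrays highest and deficient arrays lowest, and the homozygous wild type group spread most: its array 1 stood near the heterozygous arrays and its arrays 2 and 3 nearer to the deficient ones.

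On the normalized log2 scale, Cidec was at 4.42 ± 0.25 (SD, n = 3) in deficient, 6.73 ± 1.46 in homozygous wild type and 8.97 ± 0.26 in heterozygous cells. Since the deficient group gave only a bound, the folds are set against the dimmest probes above background on each array. They carry no sampling error and are not lower limits, since the intervals below reach smaller changes. The p-values and intervals below belong to the fitted differences, which do not use this floor, and do not test these folds. By this measure Cidec was 17.4-fold lower in deficient than in heterozygous cells (limma adjusted p = 0.00846). The 95% interval of the fitted log2 difference was -5.91 to -3.18. Cidec was 8.02-fold lower than in both control groups together (limma adjusted p = 0.0195, interval -4.61 to -2.25). Against homozygous wild type cells alone it was 3.70-fold lower without passing (limma adjusted p = 0.288, interval -3.67 to -0.95). This fold rests on homozygous wild type replicate 1: without it the fold was 2.10 and the fitted difference went from -2.31 to -1.50. Without background correction that difference was -0.84. These sizes rest on the background correction: the fitted log2 difference from heterozygous cells was -4.55 (SE 0.61), -2.74 with a correction that used no negative controls, -1.97 without correction and -1.89 in the authors' normalized table. The call against heterozygous cells held in each of 18 alternatives (limma adjusted p from 0.000246 to 0.0498), while that against both controls held in 10 of 18 (0.00173 to 0.133), and it ended in 8. These were the fits without deficient replicate 1, 2 or 3 or heterozygous replicate 2 or 3 (limma adjusted p = 0.133, 0.0878, 0.0692, 0.0581 and 0.0611), without the filter (0.0674), with the controls as 1 group (0.101) and with the replicate number as a block (0.0501).

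The homozygous wild type group differed from the heterozygous group in Cidec by -2.23 (SE 0.61, limma adjusted p = 0.483), which did not pass. Both groups carried the same array number in their titles, unlike the deficient arrays. Without homozygous wild type replicate 1 this difference was -3.01 and passed (limma adjusted p = 0.016). The 3 homozygous wild type arrays had the same order in Cidec (8.41, 6.08 and 5.71) and in the brightest Pparg probe (9.71, 9.15 and 8.13). The Lpl probes, Dgat1, Dgat2 and the dimmer Angptl4 probe had this order too, while Cd36, Fabp5, Plin2 and the brighter Angptl4 probe did not. With 3 arrays a shared order is common, so no link between Cidec and Pparg is read from it. Over the 9 arrays, the genes of 12245 others with the pattern most like that of Cidec were Cd164, a sialomucin (Pearson r = 0.962), Arhgap25, a GTPase activating protein of blood cells (0.960), and Pnpla5, of the patatin-like lipase family (0.957). These were picked for their likeness, and the 3 groups set much of it.

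Lpl encodes lipoprotein lipase, which is secreted and frees fatty acids from the triglyceride of lipoproteins. Its brighter probe read 2747, 2825 and 2383 (signal as deposited) on deficient arrays, 5228, 3706 and 3559 on homozygous wild type arrays and 4718, 4111 and 4046 on heterozygous arrays. All deficient arrays were below all controls, and the control groups overlapped. On the normalized log2 scale the means were 11.28 ± 0.07 (SD, n = 3), 11.89 ± 0.28 and 12.02 ± 0.13. The differences of deficient cells were -0.67 (SE 0.21) from both controls, -0.74 (SE 0.25) from heterozygous and -0.60 (SE 0.25) from homozygous wild type cells, and none passed (limma adjusted p = 0.226, 0.228 and 0.558). Without background correction and in the authors' normalized table, Lpl did pass against both controls (-0.64 and -0.68, limma adjusted p = 0.0213 and 0.0134) and against heterozygous cells (-0.70 and -0.73, 0.023 and 0.0164).

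A second, dim probe that the platform annotation assigns to Lpl, through a cDNA clone rather than the gene's reference transcript, gave another pattern. It was above background on 3 homozygous wild type arrays (signals as deposited 190, 291 and 244) and 1 heterozygous array (313), and on 0 deficient arrays (142, 177 and 193). Its homozygous wild type arrays were the highest after normalization, 5.59 to 6.35 against 4.66 to 5.10 in heterozygous and 4.57 to 5.33 in deficient cells, with 0 of 4 comparisons passing (unadjusted limma p from 0.00835 to 0.777). Without the homozygous wild type arrays this probe would not have met the filter. The filter thus favours a high value in that group, and nothing is read from the order of the groups. Averaging both probes turned the small Lpl difference between the control groups from -0.14 to 0.46. Angptl4 encodes a secreted inhibitor of lipoprotein lipase. Its brighter probe had normalized log2 signals of 6.48, 6.16 and 7.56 in deficient, 6.89, 6.94 and 6.96 in homozygous wild type and 7.11, 7.44 and 8.32 in heterozygous cells. Deficient arrays overlapped both control groups, and the heterozygous arrays lay above the homozygous wild type ones. Deficient cells differed from heterozygous cells by -0.89 (95% interval -1.83 to 0.06) and from homozygous wild type cells by -0.19 (-1.14 to 0.76). Its other probe differed by -0.50 and -0.52 in these comparisons, and no comparison of either probe passed.

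**Figure D2:**
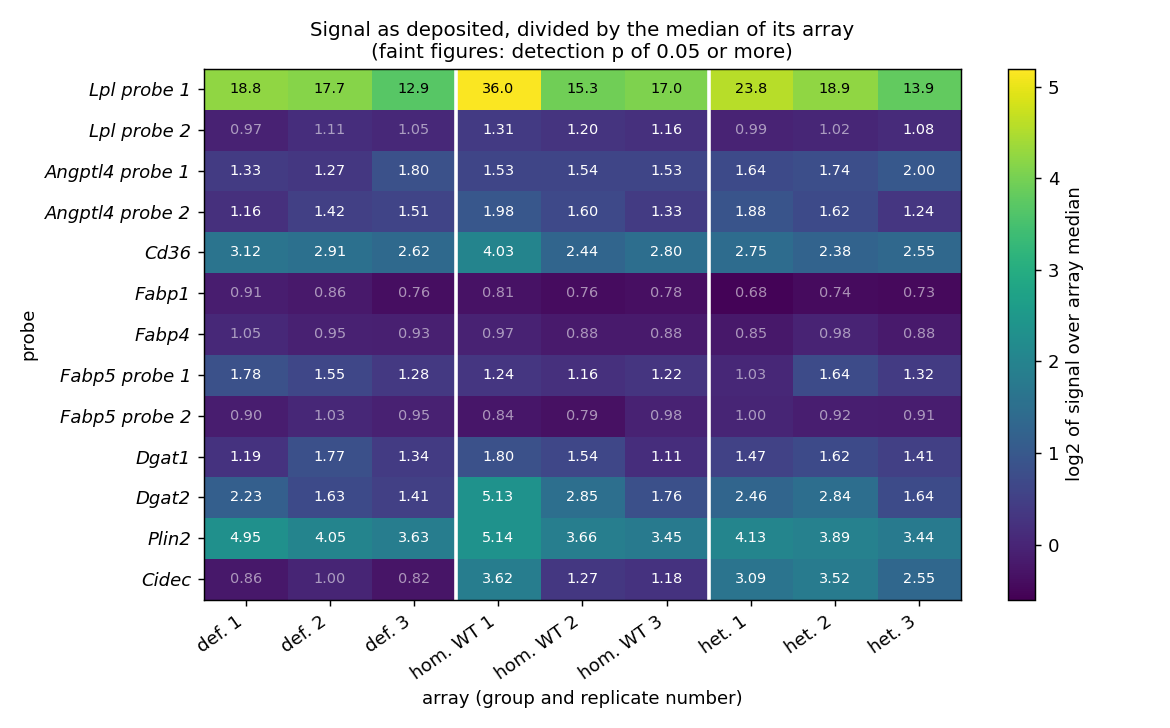
Signal as deposited divided by the median signal of its array, for all 13 probes (rows) on the 9 arrays (columns, by group and replicate number); colour is the log2 of that ratio, and faint figures mark a detection p-value of 0.05 or more. Fabp1, Fabp4 and the second Fabp5 probe are faint on every array, at ratios from 0.68 to 1.05.

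CD36 is a membrane carrier for long-chain fatty acids and a scavenger receptor. The Cd36 probe read 456, 465 and 483 (signal as deposited) on deficient, 584, 589 and 589 on homozygous wild type and 545, 516 and 741 on heterozygous arrays. After normalization the groups overlapped, at 8.41 ± 0.11 (SD, n = 3), 8.56 ± 0.10 and 8.60 ± 0.32 on the log2 scale. The difference from both controls was -0.17, with a 95% interval from -0.67 to 0.32 that holds changes to either side and a limma adjusted p of 0.794.

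Of the fatty acid binding proteins, small carriers that ferry fatty acids through the cytosol, Fabp1 (named for liver) and Fabp4 (for adipocytes) were above background on 0 of 9 arrays. The Fabp1 signals ran from 117 to 211 and those of Fabp4 from 141 to 255, between 0.68 and 1.05 of their arrays' medians, so no level or fold is given for either. The smallest detection p-value of Fabp4 was 0.082, on deficient array 1, and that of Fabp1 was 0.867. Fabp5, named for skin, was above background on 8 of 9 arrays with its brighter probe and on 0 with the other. Its normalized log2 signals were 7.30, 6.91 and 6.24 in deficient, 6.13, 5.56 and 5.91 in homozygous wild type and 4.81, 7.21 and 6.41 in heterozygous cells, the last group spreading most and overlapping both others. Deficient arrays lay above all homozygous wild type arrays, which 6.17% of all genes did. Fabp5 was the 1 tested gene with a positive difference from both controls, 0.81 (95% interval -0.27 to 1.89, limma adjusted p = 0.522), and it was not called in any of 18 alternatives.

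Dgat1 and Dgat2 encode unrelated enzymes that both carry out the last step of triglyceride synthesis. The Dgat2 probe read 327, 260 and 259 (signal as deposited) on deficient, 744, 690 and 369 on homozygous wild type and 487, 616 and 477 on heterozygous arrays. Deficient signals were the lowest as deposited, but after normalization deficient array 1 (7.72) lay above the lowest array of each control group (7.44 and 7.41). Dgat2 differed by -1.14 (SE 0.44) from both controls and -1.29 (SE 0.51) from homozygous wild type cells, and did not pass (limma adjusted p = 0.327 and 0.542). Against heterozygous cells the 95% interval was -2.15 to 0.15 (limma adjusted p = 0.423), and in no comparison was it called in any of 18 alternatives. Without background correction and in the authors' normalized table its difference from both controls was -0.63 and -0.61. Dgat1 read 5.90, 7.26 and 6.43 (normalized log2 signal) in deficient, 7.23, 6.95 and 5.27 in homozygous wild type and 6.70, 7.16 and 6.71 in heterozygous cells. The groups overlapped, and the difference from both controls, -0.14 (95% interval -1.17 to 0.89), turned to 0.04 without homozygous wild type replicate 1 and to 0.17 without deficient replicate 1.

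Plin2 encodes perilipin 2, a coat protein of lipid droplets in most cells. Its probe read 724, 646 and 670 (signal as deposited) on deficient, 746, 885 and 725 on homozygous wild type and 820, 844 and 998 on heterozygous arrays. After normalization the deficient and homozygous wild type groups stood at 9.12 ± 0.13 and 9.13 ± 0.16 (log2, SD, n = 3) and the heterozygous group at 9.44 ± 0.17. The difference from homozygous wild type cells was -0.01 (95% interval -0.54 to 0.53) and that from heterozygous cells -0.32 (-0.85 to 0.22), with limma adjusted p of 0.997 and 0.572. The 2 coat and droplet proteins among the members thus had different values in the same arrays: Cidec fell, and Plin2 had intervals that held 0 in every comparison. A test between the 2 genes was not made, since levels of different probes are not set against each other.

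**Figure D3:**
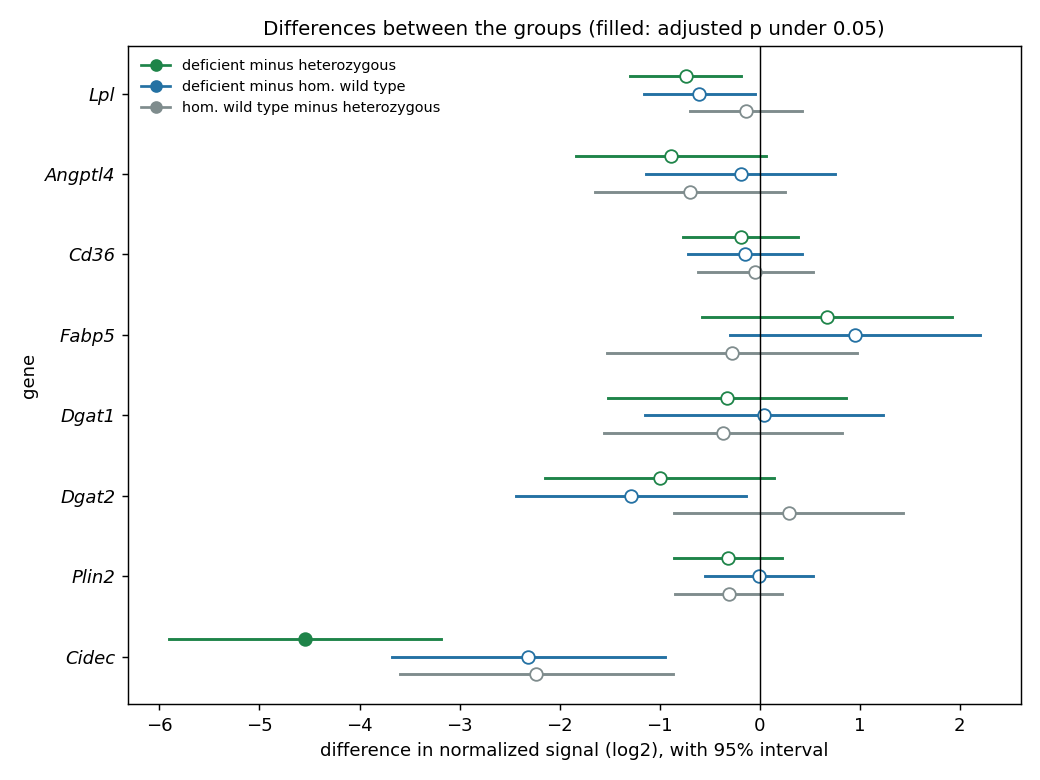
Difference in normalized log2 signal (horizontal axis) for the 8 tested genes in 3 comparisons, with its 95% interval from the fit over all 12246 genes; a filled point marks an adjusted p under 0.05. Cidec against heterozygous cells, at -4.55, is the filled point, and Fabp5 is the gene with positive values against both control groups (0.67 and 0.95).

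By comparison, the differences from heterozygous cells were the larger ones for 5 of the 7 other tested genes as well. Against heterozygous cells 1 of 8 genes fell (Cidec) where 0.269% of all genes did, 7 of 8 differences were negative (58.8% of all genes), with a median of -0.53 beside -0.12 over all genes. Cidec, Lpl and Plin2 had all deficient arrays below all heterozygous ones, which 12.5% of all genes had. Against homozygous wild type cells the limma fit called 0 of 8 (0.196% of all genes in either direction), although Cidec, Dgat2 and Lpl were lower at an unadjusted p under 0.05, as 4.23% of all genes were. In it 6 of 8 differences were negative, beside 53.5% of all genes, with a median of -0.17 beside -0.04. In this comparison Cidec and Lpl had all deficient arrays below the homozygous wild type arrays (6.70% of all genes). Between the control groups the limma fit called 0 of 8 (0.0327% of all genes), with Cidec the 1 gene that was lower at an unadjusted p under 0.05, as 2.73% of all genes were. Homozygous wild type arrays were below all heterozygous ones for Cidec and the brighter Angptl4 probe, which 6.59% of all genes showed. On the other Angptl4 probe the control groups overlapped, with a difference of 0.02. Here 7 of 8 differences were negative, beside 56.4% of all genes, with a median of -0.29 beside -0.07. The difference between the 2 comparisons of deficient cells equals this difference between the control groups, and for no member did it pass the test.

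Genes of the same pathways outside the 10 members were described in 5 lists. Over both controls, limma called 0 genes of any list, and at an unadjusted p under 0.05 the counts were 3 of 12 for lipid droplet coat and biogenesis (2 higher and 1 lower), 2 of 13 for fatty acid transport and activation (1 each way), 1 of 9 for the control of lipoprotein lipase (higher), and 0 of 8 and 0 of 9 for triglyceride synthesis and lipolysis. Of all genes, 12.8% were under 0.05 in this way, so nothing is read from these counts. The medians were 0.13, -0.06, 0.08, -0.18 and 0.06, beside -0.07 over all genes. By the smallest p in each list, Hilpda, a droplet protein that inhibits the lipase ATGL, differed by 0.79 (limma adjusted p = 0.178). It read 10.64 ± 0.19 in deficient, 10.14 ± 0.13 in homozygous wild type and 9.56 ± 0.32 in heterozygous cells (log2, SD, n = 3). Slc27a1, a fatty acid transport protein, differed by 0.56 (0.327), and Furin, a protease known to cleave lipoprotein lipase and its ANGPTL regulators, by 0.69 (0.269). Lpin1, a phosphatidate phosphatase, differed by -0.58 (0.61) and Abhd6, a monoacylglycerol lipase, by -0.73 (0.503), all as limma adjusted p.

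**Figure D4:**
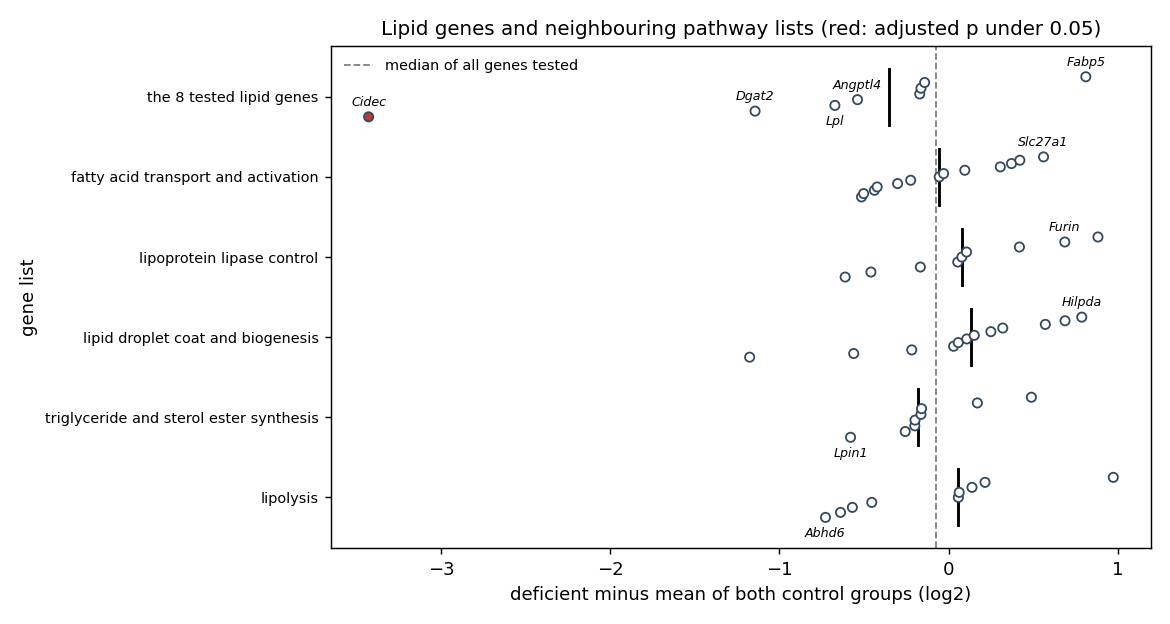
Log2 difference of deficient cells from the mean of both control groups (horizontal axis) for the 8 tested members and for 5 pathway lists (rows); each point is a gene, black bars are list medians, the dashed line is the median of all genes at -0.07, and red marks an adjusted p under 0.05. Cidec is the red point, and the medians of the lists lie between -0.18 and 0.13.

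Cells other than macrophages also use these genes, so their markers were read on the same arrays. Of 5 adipocyte markers on the array, Adipoq, Lep, Plin1 and Slc2a4 were above background on 0 arrays, and the fifth, Retn, differed by -0.85 from both controls (limma adjusted p = 0.407). The summed signal of the 5 was 665 to 837 in deficient, 681 to 1100 in homozygous wild type and 920 to 1384 in heterozygous cells. Endothelial cells are a known site of Cd36 and Fabp4. Of 6 tested endothelial markers 0 passed over both controls (before adjustment, 1 was under 0.05 in each direction). Against heterozygous cells 1 of the 6, Vwf, rose (2.35, limma adjusted p = 0.019). The counts of all genes called in each direction, beside which such single calls stand, are given in the last section. However, 4 of the 6 differences there were negative, with a median of -0.27 and Pecam1 at -1.14 (limma adjusted p = 0.36), so the list had no shared direction. The endothelial sum over 8 was 1419 to 1819, 1460 to 2463 and 1876 to 2780 in the same order. The 6 tested alveolar epithelial markers went both ways over both controls: Hopx rose (2.15, limma adjusted p = 0.0087) and 5 did not pass, Abca3 at 1.85, Sftpb at 0.92, Sftpc at -0.03, Ager at -0.33 and Epcam at -2.03 (limma adjusted p from 0.159 to 0.983), and the sum over 8 was 1830 to 2865, 2134 to 2518 and 2383 to 2896. Of the neutrophil and eosinophil markers 1 was tested, S100a8, at 1.33 over both controls and 1.78 against heterozygous cells (limma adjusted p = 0.137 and 0.075), with sums over 7 of 973 to 1189, 882 to 1493 and 1100 to 1696. Of the lymphocyte markers 1 was tested, Cd3e, at -0.48 and -0.66 (limma adjusted p = 0.577 and 0.457), with sums over 4 of 514 to 658, 558 to 818 and 738 to 1118. Each of these sums is of signals as deposited, not normalized, and includes the signal of probes at background. It therefore follows the brightness of its array too, and no number of cells is read from it. The part of these cells in the values above was not tested.

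**Figure D5:**
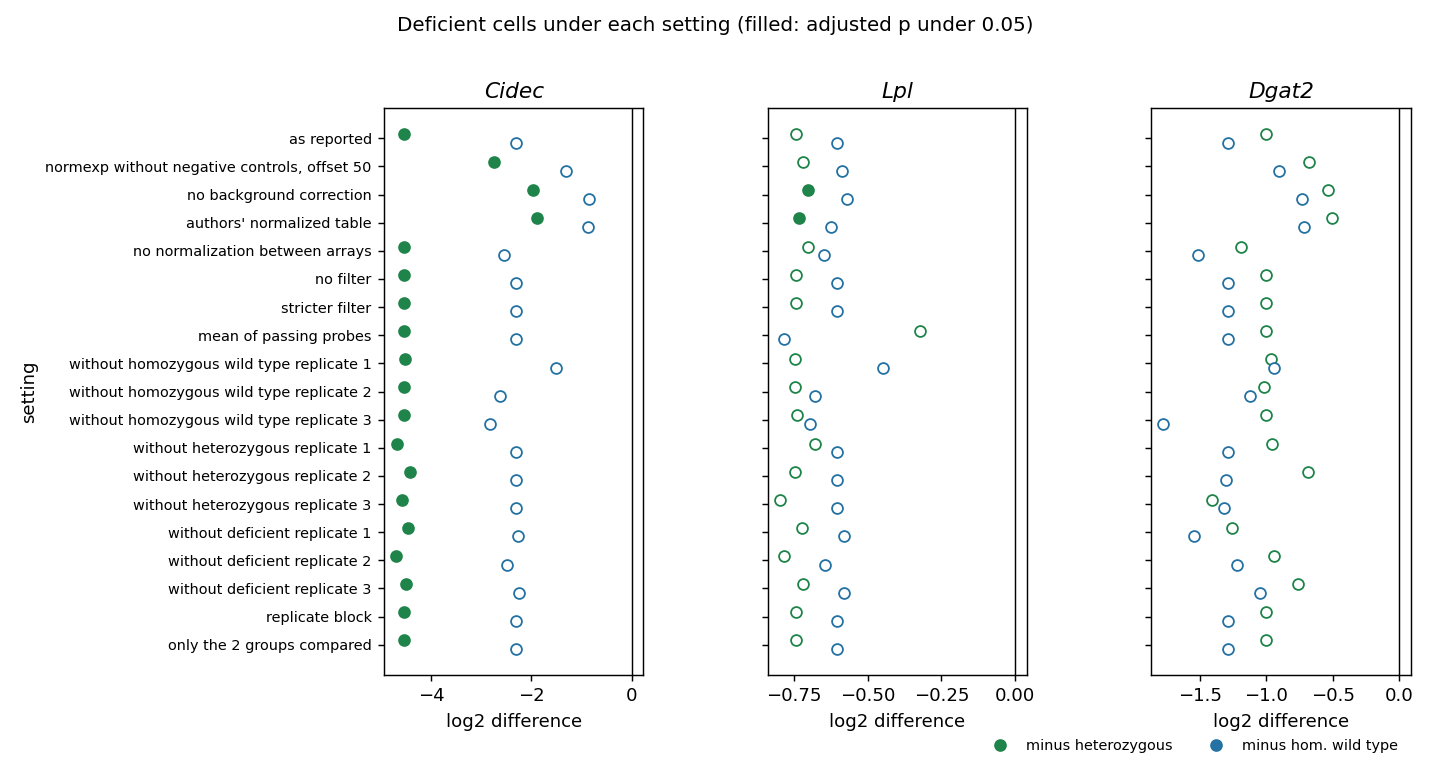
Log2 difference of deficient cells (horizontal axis, a scale of its own for each gene) from heterozygous (green) and homozygous wild type cells (blue) for Cidec, Lpl and Dgat2 under each setting (rows); filled points have an adjusted p under 0.05. Cidec is filled against heterozygous cells in every row, at -4.69 to -1.89, and Lpl in those of no background correction and the authors' table.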

How the data were processed

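Per the file headers, the deposited table holds 1 intensity per probe and array, not normalized, beside a detection p-value whose method the sources used here do not give; software and genome build are also not given. A second deposited table holds an intensity normalized by the authors by an unstated method; its columns had medians of 193.1 to 203.2, rank correlations of 0.99966 or more with the same arrays, and no centring or sign to settle. Per the labels' protocols, RNA was amplified as cDNA and labelled with biotin.

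Signals were background corrected with normexp in limma 3.58.1 (R 4.3.3), with negative controls that limma infers from detection p-values (offset 16), quantile normalized and taken to log2. That step reads each p-value as a rank within the controls, whereas the deposited ones fall far below any rank, so it is approximate. Symbols came from the platform annotation (35784 probes with 1, 10453 with none), updated through RefSeq; of the 13 member probes 11 matched by gene identifier, 1 by accession and 1 by symbol. For each gene the brightest passing probe was used. Over all 9 arrays, 1 mean per group was fitted with lmFit and eBayes, and calls were made where the p-value, adjusted by Benjamini-Hochberg over all 12246 genes, was under 0.05. The fit was tested on simulated data. The number of arrays limits the precision. The members, lists and tests were chosen with earlier results of these data known. The rule for names takes all members, Pparg, the gene of smallest p (or each called gene) per pathway list, and the 3 genes most like each called member; marker genes are named beyond it, after their values were seen. Alternatives changed the background correction, normalization, filter, probe rule, controls, samples and replicate block.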

Additional observations from a re-analysis of the deposited data

How the results depend on the processing

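The fall of Cidec against heterozygous cells kept its call in all 18 alternatives run. The number of member genes called against both controls was 1, and it was 2 without background correction and in the authors' normalized table (with Lpl), 0 without the filter, which nearly doubled the number of genes tested, 0 with the controls as 1 group, 0 with a replicate block, and 0 to 1 when single arrays were left out. The counts of their probes were 2, 2, 0 and 0 under the first 4 of these, and 0 to 1 without single arrays. Between the control groups 0 to 1 members were called without single arrays. Counts over all genes moved more. Against both controls, 94 became 239 with normexp without negative controls, 276 without background correction, 273 in the authors' table, 142 with the stricter filter, 58 with the controls as 1 group, 58 with the replicate block, and 22 to 99 without single arrays. Against heterozygous cells 129 became 292, 348, 323 and 230 under the first 4 of these, and 44 to 156 without single arrays. Of the 129, 33 were lower, and those that were higher included the markers Vwf, C1qb and Csf1r. Against homozygous wild type cells 24 became 48, 67, 63 and 42, 10 with only the 2 groups fitted, and 7 to 28 without single arrays. Between the controls 4 became 9, 15, 21, 2 without normalization between arrays, 0 without the filter, 0 with only the 2 groups, 2 with the replicate block, and 0 to 6 without single arrays. Without normalization the median of all genes was -0.29 against both controls, and 52 genes were called higher and 40 lower. With it, 70 of 12246 genes were called higher, the markers C1qb and Hopx among them, and 24 lower.

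Differences near 0 changed sign, none of them called. Dgat1 against homozygous wild type cells (0.0429) was -0.0121 with normexp without negative controls, -0.0135 without correction, -0.0639 in the authors' table, -0.209 without normalization, and -0.565 to 0.417 without single arrays. Without single arrays, Dgat1 ranged from -0.497 to 0.175 against both controls and from -0.744 to 0.239 between the controls. Also without single arrays, against homozygous wild type cells, Plin2 ranged from -0.0643 to 0.0802 and Angptl4 from -0.608 to 0.0914. Between the controls, Cd36 was 0.0293 in the authors' table, 0.103 without normalization and -0.155 to 0.14 without single arrays. Without single arrays Fabp5 there ranged from -0.947 to 0.249 and Dgat2 from -0.0897 to 0.777, and Lpl was 0.461 with probes averaged. The causes were not tested.

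The titles number the arrays 1 to 3 in each group. Same-numbered deficient and homozygous wild type arrays had correlations of their deviations of 0.171, -0.0593 and 0.135. Those of heterozygous arrays were 0.129, 0.00725 and 0.195 with deficient and 0.217, -0.0154 and 0.109 with homozygous wild type arrays. Among the homozygous wild type arrays, deficient arrays 2 and 3 correlated better with one of another number. With 3 arrays a group, these values cannot decide whether the numbers pair the samples. The main fit did not pair them, and a replicate block was run as an alternative. With the replicate block Cidec had a limma adjusted p of 0.0501 against both controls and 0.0251 against heterozygous cells. Signals within reach of background, those of Fabp1, Fabp4 and deficient Cidec, allow no level, and sizes near them depend on the correction.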
